A study of Rattus norvegicus with 192 samples.

Results

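The Myc proto-oncogene family and its partner genes were described in rats that had inhaled phosphine (PH3), a gas used to fumigate grain and known as an inhibitor of mitochondrial respiration. Of 9 listed genes, 6 (of 13438 genes named in this way) were measured by probe sets that the platform annotation gives to 1 gene: Myc, Mycn, Mxd1, Mxd4, Gpatch4 and Ncl. They were read by 10 of the 31042 probe sets tested, 4 for Gpatch4, 2 for Mxd4 and 1 for each of the others. The Gpatch4 sets are called 1 to 4 here, in order of their mean over all arrays, from the brightest down. Probe sets for Max and Npm1 also name a second gene, a pseudogene, and Mycl had no probe set in the annotation used, so these 3 genes have no values here.

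The tested animals were adult male Sprague-Dawley rats exposed whole-body to 660 ppm PH3 for 25 min, a product of 16500 ppm×min, and the controls were male rats of the same strain that breathed air. Heart, lung, kidney, blood, olfactory bulb and brain stem were sampled 1, 3, 6 or 24 h after exposure, and RNA was hybridised to Affymetrix rat arrays. All groups shared euthanasia with ketamine and xylazine, which the controls received too. The 192 arrays make 48 groups of 4 rats, except 3 in Air blood at 24 h and 5 in Air olfactory bulb at 1 h. Values are log2 intensities as deposited, so a difference of 1 is a factor of 2 in signal. Rat numbers give the animal, and several tissues came from 1 rat.

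Myc, Mycn and Mycl are basic helix-loop-helix leucine-zipper transcription factors that bind DNA as dimers with Max. The dimers recognise the E-box, and their known targets include genes of ribosome production, nucleotide synthesis, metabolism and the cell cycle. Mxd1 and Mxd4 also pair with Max and oppose Myc at such sites, and Mxd1 is known for its rise as myeloid cells mature. Ncl (nucleolin) and Npm1 (nucleophosmin) are abundant nucleolar proteins and textbook Myc targets, and GPATCH4 in human cells is a nucleolar protein with a G-patch motif. Myc is an immediate early gene, with a short-lived mRNA that climbs quickly after many stimuli, while Mycn is best known from the developing nervous system.

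The E-box CACGTG, which reads the same on both strands, was searched in the RefSeq promoter windows of the listed genes (build GRCr8, 250 bases before to 50 after the start). Of 7 listed genes in that table, 3 had 1 match each, against 6.42% of all 33469 promoters. The 3 matches are shown because they are the sequence that Myc and Max dimers read, with the E-box in capitals, 12 bases on either side and all letters 5′ to 3′ on the gene's own strand. Relative to the start, their first motif base is −33 in Max, −197 in Mxd4 and 31 in Gpatch4.
Max, chr6:101395306-101395335, minus strand: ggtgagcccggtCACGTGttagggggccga
Mxd4, chr14:80786572-80786601, plus strand: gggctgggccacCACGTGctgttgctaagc
Gpatch4, chr2:175807780-175807809, plus strand: agtcgtgtatggCACGTGcttccacggaga
No such letters were in the windows of Mycl, Mxd1, Ncl and Npm1. A match is a description of the sequence and no evidence of binding in these tissues.

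In air-breathing rats the 6 genes had different tissue profiles. Myc was brightest in lung (7.93 ± 0.181) and blood (7.51 ± 0.681), followed by kidney (6.00 ± 0.330), heart (5.87 ± 0.345), olfactory bulb (5.82 ± 0.186) and brain stem (5.16 ± 0.253), all as mean ± SD of log2 intensity. Here and below the Air arrays of all times were pooled, with n = 15 in blood, 17 in olfactory bulb and 16 in each other tissue. Kidney and heart did not pass the test against each other (limma adjusted p = 0.337), nor did heart and olfactory bulb (adjusted p = 0.715).

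Mycn was brightest in olfactory bulb, at 6.79 ± 0.245, and 1.89 ± 0.110 (SE) above heart, at 4.91 ± 0.669. Blood (4.44 ± 0.533) and lung (4.40 ± 0.316) came next and did not pass the test against each other (adjusted p = 0.624), and kidney (3.70 ± 0.270) and brain stem (3.62 ± 0.225) were lowest. The heart had the widest spread of the 6 tissues, from 3.86 to 6.12 over its Air arrays. Mxd1 had 10.55 ± 0.273 in blood, 4.27 ± 0.0715 (SE) above lung, its next tissue at 6.26 ± 0.226. The other tissues held Mxd1 at 5.88 ± 0.150 in kidney, 5.83 ± 0.162 in olfactory bulb, 5.68 ± 0.234 in heart and 5.60 ± 0.141 in brain stem.

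Mxd4, by its brighter probe set, stood at 8.49 ± 0.274 in lung, 8.22 ± 0.168 in kidney, 8.06 ± 0.167 in heart, 7.84 ± 0.258 in olfactory bulb, 7.01 ± 0.489 in blood and 6.68 ± 0.242 in brain stem. Its dimmer probe set also had lung highest (7.69 ± 0.324) and brain stem lowest (5.87 ± 0.207). Brain stem was the brightest tissue for Gpatch4 on all 4 probe sets, at 6.70 ± 0.278 for set 1, 7.11 ± 0.272 for set 2, 6.21 ± 0.303 for set 3 and 6.81 ± 0.211 for set 4. On set 1 blood followed at 5.87 ± 0.355, and the other tissues lay between 4.89 ± 0.204 in kidney and 5.26 ± 0.243 in heart. Ncl was bright everywhere, from 9.73 ± 0.300 in blood and 10.12 ± 0.176 in heart to 10.43 ± 0.105 in olfactory bulb, with brain stem at 10.39 ± 0.119, lung at 10.38 ± 0.0734 and kidney at 10.34 ± 0.119. For Ncl the bulb did not pass against brain stem (adjusted p = 0.642), nor brain stem against lung (adjusted p = 0.972) or lung against kidney (adjusted p = 0.510), while kidney passed against heart (adjusted p = 5.514e-04).

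**Figure D1:**
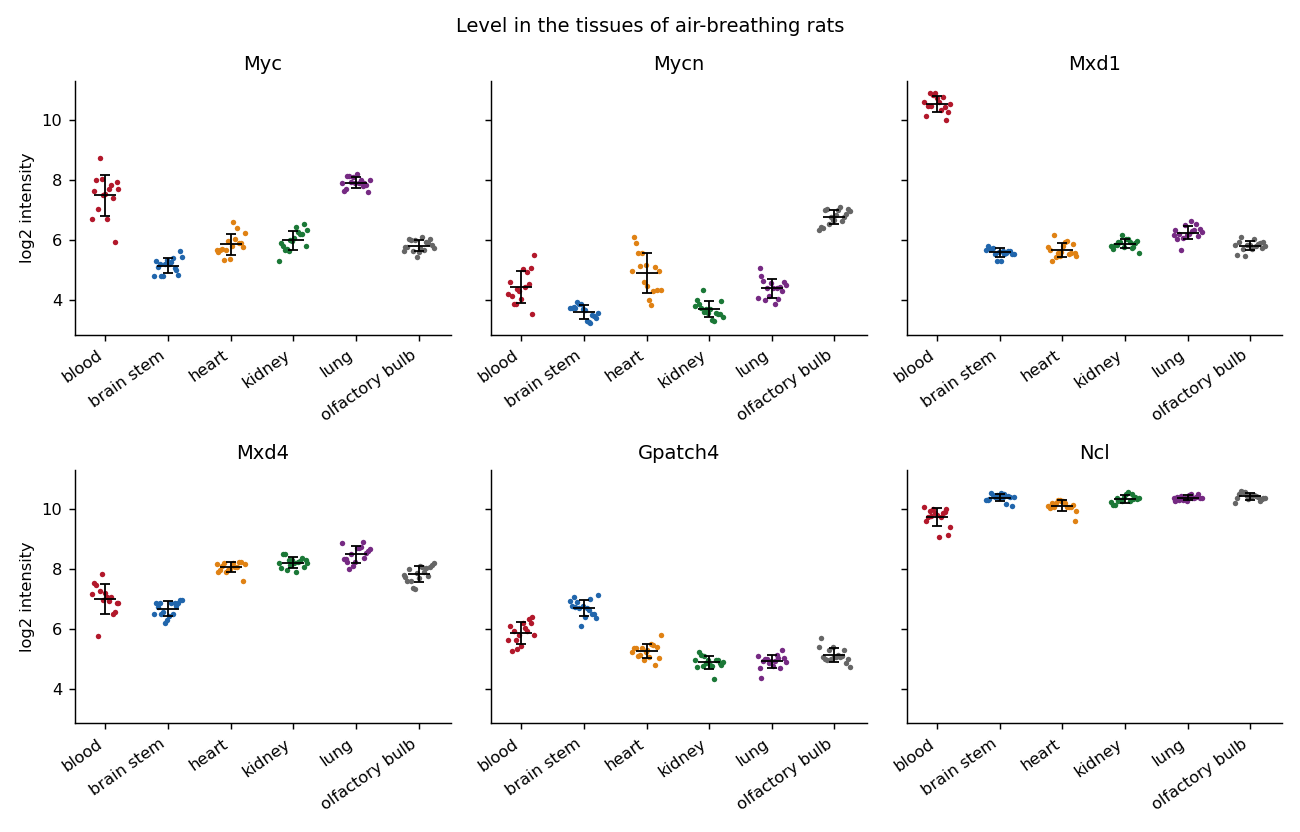
Level of each gene in the 6 tissues of air-breathing rats (log2 intensity, 1 point per array, black bars mean ± SD; Mxd4 and Gpatch4 by their brightest probe set). Mycn stands highest in olfactory bulb at a mean of 6.79, Mxd1 in blood at 10.55, and Gpatch4 in brain stem at 6.70.

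Over the 10 probe sets and 15 pairs of tissues, 122 of 150 differences in Air level passed limma's adjusted p under 0.05, where 77.2% of those over all probe sets did. Levels between tissues depend on scaling, since which arrays were normalised together is not given in the sources used here and the mean array median ran from 5.05 in heart to 5.34 in olfactory bulb. Subtracting each array's median changed the call or the sign of 25 of the 150. Among them, lung no longer passed against blood for Myc (0.23, adjusted p = 0.070) or against kidney for the brighter Mxd4 set (0.12, adjusted p = 0.207). It turned the sign of 2 called pairs, Mxd1 in heart minus olfactory bulb (from −0.14 in the values as deposited, to 0.15) and Ncl in brain stem minus heart (0.27 as deposited, −0.01 after). Mycn in olfactory bulb, Mxd1 in blood and Gpatch4 in brain stem stayed highest.

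Of the 240 comparisons of PH3 with Air over 10 probe sets, 6 tissues and 4 times, limma called 6, where a call is a p-value under 0.05 after Benjamini-Hochberg adjustment across every probe set tested. At 1 h Mycn was lower in the heart and Myc higher in the kidney, and at 3 h Gpatch4 was higher in the brain stem and Mxd1 and Mxd4 in the lung. By comparison, the share of all probe sets called was 0.915% in heart, 2.35% in kidney, 4.24% in lung, 0.306% in brain stem, 0.00322% in olfactory bulb and 0% in blood 1 h after exposure. After 3 h the share was 0.00644% in heart, 0.303% in kidney, 9.89% in lung, 0.0161% in brain stem and 0% in blood and olfactory bulb. At 6 h it was 0.0161% in kidney and 0% elsewhere, and at 24 h 0.00644% in heart, 0.00322% in brain stem and 0% elsewhere, and no member was called at these times. Without adjustment, p was under 0.05 for 910 to 2588 probe sets in blood and 1271 to 3055 in olfactory bulb, depending on the time. In lung at 3 h, 2 of 10 members is thus set against about 1 in 10 of all probe sets.

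**Figure D2:**
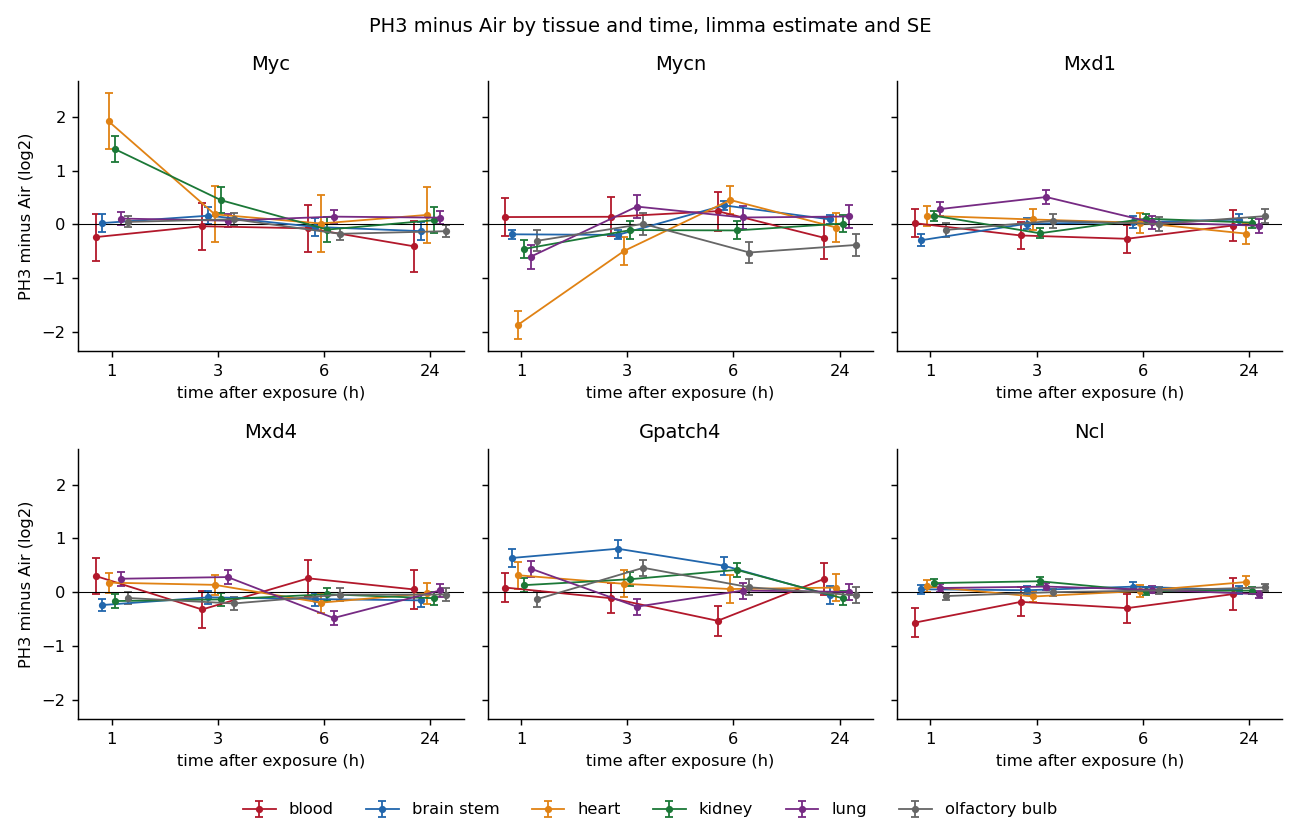
PH3 minus Air (log2, limma estimate ± SE) by time after exposure for the brightest probe set of each gene, 1 line per tissue. Myc stands at 1.91 in heart and 1.40 in kidney at 1 h, Mycn at −1.86 in heart at 1 h, and Gpatch4 at 0.64, 0.81 and 0.50 in brain stem at 1, 3 and 6 h.

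Tissues matched their labels: 4 of 4 red cell markers were highest in blood, 5 of 5 heart markers in heart, 5 of 5 lung markers in lung, and 3 of 4 each in kidney (not Slc34a1), brain stem (not Slc6a5) and olfactory bulb (not Tbr1). By correlation within their tissue 12 arrays stood apart, among them heart PH3 Rat357 at 1 h, heart PH3 Rat368 and Air Rat370 at 3 h, lung Air Rat355 and bulb Air Rat400 at 3 h, and bulb PH3 Rat381 and Rat391 at 6 h.

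Myc in the kidney at 1 h measured 7.72, 7.10, 6.28 and 7.21 in PH3 rats, against 5.32, 5.90, 5.81 and 5.69 in Air rats. All PH3 kidneys lay above all Air kidneys, with Rat351 the lowest of the PH3 group. Over all probe sets, such separation was counted only in brain stem at 1 and 3 h and olfactory bulb at 3 h. The share was 2.15%, 2.36% and 3.24%, so a lack of overlap elsewhere is given as a description only. The difference was 1.40 ± 0.239 (SE), a fold of 2.64 with a 95% interval of 1.88 to 3.70 (limma adjusted p = 8.187e-04). It also passed with the rat as a replicate block (adjusted p = 0.00685, where 0.689% of all probe sets passed) and, at 0.97, against Air kidneys from other times (adjusted p = 0.00197, where 6.01% passed). The block fit joined all tissues and gave each probe set a common spread over them. At 3 h the kidney difference was 0.45 ± 0.239 (adjusted p = 0.548), at 6 h −0.10 and at 24 h 0.08, and the groups overlapped at each of these times. Whether the kidney effect differed between the 4 times did not pass the F test (adjusted p = 0.0834), which called 0.49% of all probe sets in kidney.

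Myc in the heart at 1 h measured 8.17, 7.94, 5.92 and 8.35 in PH3 rats, against 5.69, 5.63, 5.67 and 5.73 in Air rats. All 4 PH3 hearts were above all Air hearts, but Rat351, again the lowest, exceeded the highest Air heart only slightly. The difference of 1.91 ± 0.520 did not pass (limma adjusted p = 0.0749), with a fold of 3.77 and a 95% interval of 1.80 to 7.89. Without Rat351 it was 2.47 (adjusted p = 0.00463), and without the other PH3 or Air hearts, left out in turn, it was no lower than 1.66. Without the heart arrays that stood apart, Rat357 at this time among them, it was 1.66 (adjusted p = 0.169). With the rat as a replicate block over all tissues the difference passed (adjusted p = 7.452e-06), as did 2.36% of all probe sets in the heart at 1 h in that fit. That fit uses a common spread over all tissues in place of the heart's own.

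Single PH3 hearts were also bright for Myc later. At 3 h the PH3 hearts had 5.67, 5.26, 7.22 and 5.01, against 5.34, 5.69, 5.99 and 5.38 in Air, and at 6 h 5.52, 5.12, 5.87 and 8.47, against 5.81, 6.63, 6.05 and 6.41 in Air. One PH3 heart at each time, Rat368 and Rat391, exceeded all Air hearts, and the other 3 lay within or below the Air range. At 3 h, without Rat368 and Rat370, the 2 arrays that stood apart, the Myc difference was −0.16 ± 0.556. The 24 h difference in the heart was 0.18 ± 0.520.

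In lung, brain stem, olfactory bulb and blood, Myc differed by less than its spread between rats. The 1 h differences were 0.11 ± 0.115 in lung, 0.03 ± 0.164 in brain stem, 0.05 ± 0.103 in olfactory bulb and −0.23 ± 0.437 in blood. The 95% interval in lung ran from −0.13 to 0.35, so a rise of the size seen in kidney lies outside it. In blood the interval was −1.13 to 0.66, since its PH3 arrays ran from 5.99 to 8.30 and its Air arrays from 6.70 to 8.02. A test of the difference between the 6 tissues, which allows each its own spread, called Myc at 1 h (adjusted p = 7.745e-04), as it did 3.09% of all probe sets.

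Mycn, the other family member measured, was lower in PH3 hearts at 1 h, at 3.75, 3.32, 4.14 and 3.93, against 4.98, 6.12, 5.91 and 5.58 in Air. The groups did not overlap, and the highest PH3 heart was below the lowest Air heart. The share of all probe sets with such a separation in the heart was not counted. The difference was −1.86 ± 0.262, a fold of 0.275 with a 95% interval of 0.189 to 0.399 (limma adjusted p = 2.168e-04). These PH3 hearts were at a level low on the array, where differences are compressed. It lay between −2.09 and −1.71 when each of the 8 arrays was left out in turn, and each of these kept the call. Without the heart arrays that stood apart it was −1.91 (adjusted p = 0.00142).

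Air hearts themselves varied in Mycn with the time of sampling. PH3 hearts averaged 3.78 ± 0.346 at 1 h, 4.63 ± 0.480 at 3 h, 4.62 ± 0.435 at 6 h and 4.64 ± 0.0856 at 24 h, against 5.65 ± 0.500, 5.12 ± 0.398, 4.17 ± 0.286 and 4.70 ± 0.408 in Air hearts at the same times (SD, n = 4). Set against the Air hearts of the other times in place of those at 1 h, the PH3 hearts at 1 h were lower by a smaller amount, −0.88 (adjusted p = 0.0146), where 4.62% of all probe sets passed. The effect differed between times in the heart (F test, adjusted p = 0.0157, against 0.116% of all probe sets), from −1.86 at 1 h to −0.49 at 3 h, 0.45 at 6 h and −0.06 at 24 h.

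Mycn in kidney and lung was lower at 1 h without passing the test. PH3 kidneys had 3.29, 3.31, 3.59 and 3.49, against 3.82, 4.02, 3.89 and 3.75 in Air, a difference of −0.45 ± 0.166 (adjusted p = 0.188). These groups did not overlap, at a level low on the array. PH3 lungs had 3.50, 4.19, 4.68 and 3.84, against 4.08, 5.09, 4.80 and 4.64 in Air, with overlap and a difference of −0.60 ± 0.220 (adjusted p = 0.145).

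The olfactory bulb, where Mycn is brightest, showed differences of −0.30 ± 0.192 at 1 h, 0.01 ± 0.202 at 3 h, −0.52 ± 0.202 at 6 h and −0.38 ± 0.202 at 24 h. None passed (adjusted p between 0.473 and 1), although at 24 h the PH3 bulbs, at 6.38 to 6.67, lay below all Air bulbs, at 6.77 to 7.06. Without Rat381 and Rat391, whose 6 h arrays stood apart, the 6 h difference was −0.23 ± 0.219. In blood the differences were between −0.25 and 0.25, and in brain stem between −0.19 and 0.35. The effect at 1 h differed between the tissues (the same test, adjusted p = 8.226e-04).

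**Figure D3:**
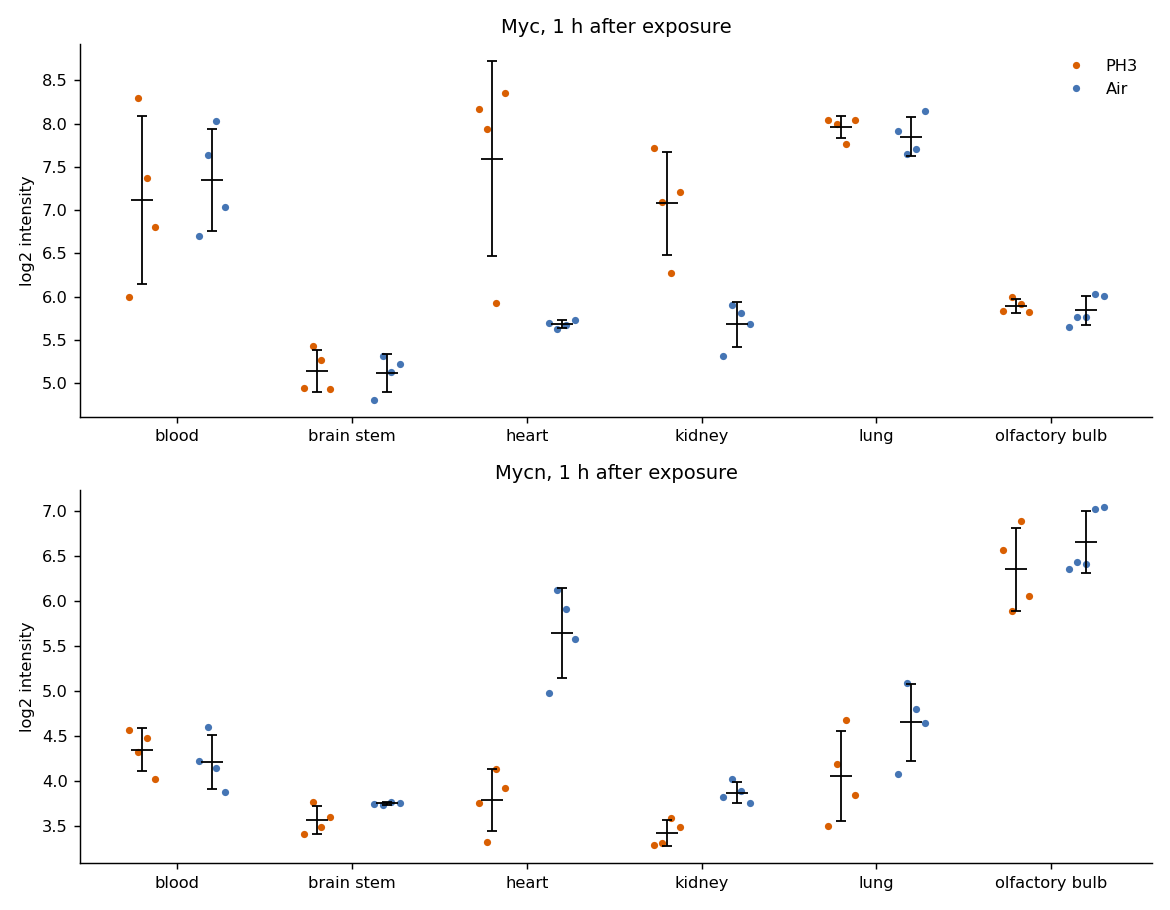
Myc and Mycn 1 h after exposure in the 6 tissues (log2 intensity), with PH3 rats left of Air rats, 1 point per array and bars for mean ± SD. PH3 points for Myc lie above all Air points in heart and kidney, and those for Mycn lie below them in the same tissues. The share of all probe sets with such a separation was not counted in heart and kidney.

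Across the 24 comparisons the Myc and Mycn effects had a Pearson r of −0.69, as a description of these contrasts, which share rats and arrays. The genes whose effects were most like those of Myc over the 24 were Gadd45b (r = 0.93), Nr4a1 (0.92), Atf3 (0.92) and Fosb (0.90). Those most like Mycn were Ppp1r3a (0.84), Xcl1 (0.83), Ankrd50 (0.82) and Adamts5 (0.79). For Mxd1 they were Csrp3, Arpc2, Drap1 and Ffar2 (each 0.67), for Mxd4 Avpr1b, Edn1, H2-Q7-ps1 and Fzd4 (0.71 to 0.73), and for Gpatch4 Syt12, Rab36, Cfap298 and Nicol1 (0.65 to 0.70).

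In the heart at 1 h, of 11 endothelial markers 1 was called higher, Sox17 (1.25 ± 0.271, limma adjusted p = 0.0187), and 5 of 11 had an unadjusted p under 0.05. Of all probe sets 0.915% were called in that comparison. The mean level of the endothelial list was 8.60 to 9.44 in PH3 hearts and 8.57 to 8.75 in Air hearts, with a median difference of 0.14. None of 4 red cell, 5 neutrophil, 8 T cell and 3 B cell markers was called by limma (1, 0, 0 and 0 with an unadjusted p under 0.05). All 4 red cell markers had a positive difference, with a median of 0.35 and a mean level of 6.51 to 7.42 in PH3 hearts and 5.78 to 7.03 in Air hearts. Of 8 proliferation genes 5 had an unadjusted p under 0.05 and 0 were called, with a mean level of 4.88 to 5.48 in PH3 hearts and 5.14 to 6.33 in Air hearts. The 3′ index, which is the 3′ minus 5′ signal of control transcripts, was 0.400 ± 0.313 in PH3 hearts, with Rat357 at 0.868, and 0.248 ± 0.0214 in Air hearts; with the index as a covariate the Mycn difference was −1.87 (adjusted p = 4.113e-04). In the kidney at 1 h 2 of 4 red cell markers were called higher, Alas2 (1.38 ± 0.352) and Ahsp (0.82 ± 0.217), and the mean level of the list was 5.67 to 6.22 in PH3 kidneys and 5.08 to 5.63 in Air kidneys. Of 11 endothelial markers 1 was called there, Sox17 (0.55 ± 0.148). Beside these counts, 2.35% of all probe sets were called in the kidney at 1 h. The part of these cells in the Myc and Mycn values was not tested. In bulk tissue, fewer cells of a type and less RNA per cell cannot be told apart.

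Mxd1, the repressive partner of Max, was higher in PH3 lungs at 3 h, at 6.50, 6.65, 6.76 and 6.60, against 5.68, 6.09, 6.52 and 6.18 in Air. The groups overlapped, since the Air lung of Rat370 exceeded the lowest PH3 lung, and Air Rat355, an array that stood apart, was the lowest. The difference was 0.51 ± 0.128 (limma adjusted p = 0.0122). It was 0.36 without Air Rat355 (adjusted p = 0.0677), 0.46 without PH3 Rat368 (adjusted p = 0.0529), 0.51 with the replicate block (adjusted p = 0.0833, where 1.25% of all probe sets passed) and 0.32 against the Air lungs of the other times (adjusted p = 0.143, where 1.39% of all probe sets passed). At 1 h it was 0.29 ± 0.128 (adjusted p = 0.267), and at 6 and 24 h 0.04 and −0.02.

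Mxd4 in the lung at 3 h passed on 1 of its 2 probe sets. The dimmer set had 7.66, 8.04, 7.86 and 8.02 in PH3 lungs, against 6.92, 7.41, 7.39 and 7.25 in Air, with no overlap and a difference of 0.66 ± 0.136 (limma adjusted p = 0.00371). The brighter set had 8.58, 8.44, 8.65 and 8.32 in PH3 lungs, against 7.99, 8.51, 8.10 and 8.24 in Air, with overlap and a difference of 0.28 ± 0.129 (adjusted p = 0.167).

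The Air lungs at 3 h were low for both Mxd4 sets. For the dimmer set PH3 lungs at 3 h averaged 7.90 ± 0.175, against 7.24 ± 0.227 in Air lungs at 3 h and 7.79 ± 0.214, 7.80 ± 0.0918 and 7.91 ± 0.237 in Air lungs at 1, 6 and 24 h. Against the Air lungs of the other times the difference was 0.06 (adjusted p = 0.883), and without Air Rat355 it was 0.55 (adjusted p = 0.0215). At 1 h the dimmer set differed by 0.27 ± 0.136 (adjusted p = 0.343), and by 0.42 against Air lungs from other times (adjusted p = 0.0134, where 10.2% of all probe sets passed). The effect differed between times on the brighter (F test, adjusted p = 0.0294) and dimmer set (adjusted p = 0.0310), against 4.82% of all probe sets. At 6 h the PH3 lungs were below all Air lungs on the brighter set, at 8.17, 8.0, 8.36 and 8.60 against 8.69, 8.69, 8.73 and 8.91, by −0.48 ± 0.129 (adjusted p = 0.857). The effects of the 2 sets over the 24 comparisons had an r of 0.36.

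**Figure D4:**
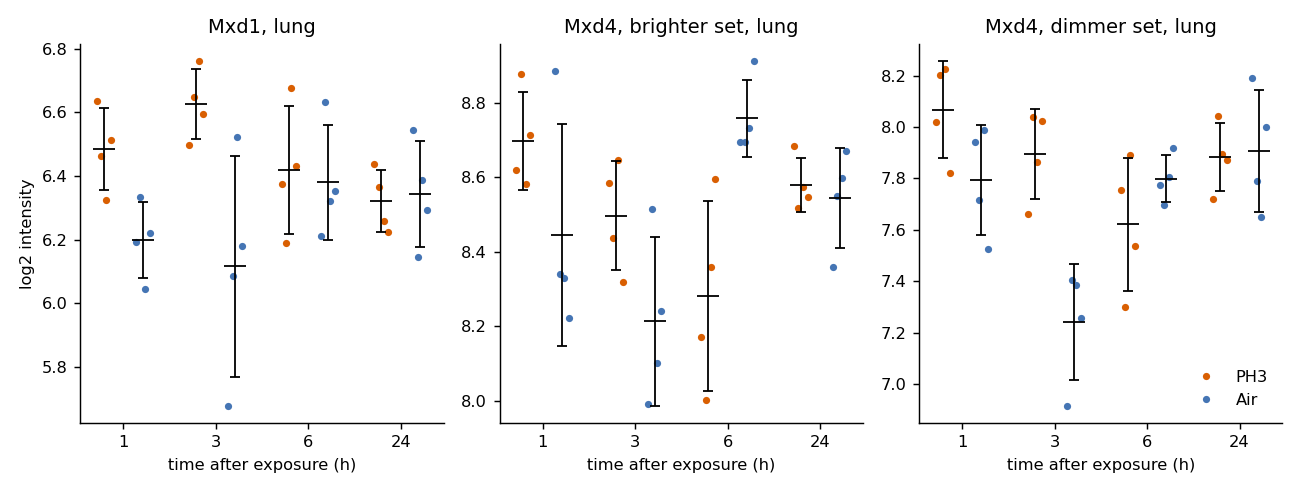
Mxd1 and the 2 Mxd4 probe sets in the lung (log2 intensity) by time after exposure, with PH3 rats left of Air rats, 1 point per array and bars for mean ± SD. At 3 h the dimmer Mxd4 set averages 7.90 in PH3 lungs and 7.24 in Air lungs, and the Air mean at the other times is 7.79 to 7.91.

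In the same lungs the 3′ index was 0.178 ± 0.0651 with PH3 and 0.445 ± 0.0776 with Air, with no overlap (0.0952 to 0.247 against 0.343 to 0.521). With the index as a covariate the Mxd1 difference was 0.50 (adjusted p = 0.369) and that of the dimmer Mxd4 set 0.43 (adjusted p = 0.439). Of 5 neutrophil markers 3 were called higher, S100a8 (1.41 ± 0.387), S100a9 (1.21 ± 0.340) and Mmp8 (1.36 ± 0.259), and 2 of 8 T cell markers, Cd3e (0.57 ± 0.171) and Cd5 (0.90 ± 0.219). These counts stand beside 9.89% of all probe sets called in the lung at 3 h. The mean level of the neutrophil list was 6.31 to 7.46 in PH3 lungs and 5.03 to 6.50 in Air lungs. The part of these cells in the Mxd1 and Mxd4 values was not tested.

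In the other tissues Mxd1 and Mxd4 did not pass against the Air rats of the same time. Set against Air rats sampled at other times, the brighter Mxd4 set was lower at 3 h in olfactory bulb (−0.57, adjusted p = 0.00111) and brain stem (−0.47, adjusted p = 0.0230), where 3.91% and 1.09% of all probe sets passed. In PH3 brain stem at 1 h Mxd1 was below all Air values, by −0.29 ± 0.108 (adjusted p = 0.520). In PH3 kidney at 1 h it was above all Air values, by 0.17 ± 0.0929 (adjusted p = 0.514). In blood, where Mxd1 is most abundant, its differences ran from −0.27 to 0.02, with SEs of 0.259 to 0.280. The brighter Mxd4 set had differences between −0.32 and 0.30 in blood, −0.19 and 0.18 in heart, and −0.16 and −0.04 in kidney.

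Gpatch4 was higher in PH3 brain stem at 1 and 3 h on each of its 4 probe sets, of which 2 passed at 3 h. At 3 h set 4 had 8.01, 7.48, 7.65 and 7.78 in PH3 rats, against 6.90, 6.68, 6.84 and 6.86 in Air, a difference of 0.91 ± 0.158 and a fold of 1.88 (limma adjusted p = 0.0289). Set 2 had 7.90, 7.76, 7.78 and 7.74 in PH3 rats, against 7.34, 7.06, 6.70 and 6.97 in Air, a difference of 0.78 ± 0.135 and a fold of 1.72 (adjusted p = 0.0289). On all 4 sets every PH3 brain stem was above every Air brain stem, as on 2.36% of all probe sets.

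Gpatch4 sets 1 and 3 did not pass at 3 h. Set 1 had 7.58, 7.50, 7.36 and 7.30 in PH3 brain stems, against 6.91, 6.72, 6.10 and 6.77 in Air, a difference of 0.81 ± 0.166 (adjusted p = 0.150). Set 3 had 6.87, 7.16, 6.66 and 6.85 in PH3 brain stems, against 6.38, 5.90, 5.61 and 6.27 in Air, a difference of 0.84 ± 0.185 (adjusted p = 0.227). The 4 sets read 1 gene in the same RNA, so they are not replicates of each other; their effects over the 24 comparisons had r of 0.48 to 0.76 in pairs.

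The 2 calls rest on all 8 arrays. When each array was left out in turn, set 2 kept its call only without Air Rat355 and set 4 only without PH3 Rat359, with differences of 0.67 to 0.89 and 0.82 to 0.99 and adjusted p up to 0.170 and 0.174. With a replicate block, which called 0% of all probe sets there, the adjusted p was 0.622 and 0.584. Against the Air brain stems of the other times, all 4 sets passed at 3 h (adjusted p from 6.842e-04 to 0.0411), where 1.09% of all probe sets did, and 3 of 4 passed at 1 h, where 0.821% did.

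At 1 h the brain stem differences in Gpatch4 were 0.64 ± 0.166, 0.38 ± 0.135, 0.25 ± 0.185 and 0.65 ± 0.158 on the 4 sets in order (adjusted p = 0.138, 0.474, 0.936 and 0.0843). On sets 1, 2 and 4 all PH3 brain stems lay above all Air brain stems, as on 2.15% of all probe sets. Set 2 was very even in PH3 brain stems, with 7.81, 7.81, 7.79 and 7.80, against 7.27, 7.21, 7.71 and 7.49 in Air. At 6 h the differences were 0.50, 0.34, 0.30 and 0.38, with overlap, and at 24 h −0.06, 0.20, −0.18 and 0.10. The effect did not pass the F test between times on any set (adjusted p from 0.610 to 0.852), a test that called 0.0709% of all probe sets in brain stem.

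Marker levels were also compared in the same brain stems at 1 h, where 2022 of 31042 probe sets had an unadjusted p under 0.05. How often the mean of a gene list separates the groups was not counted. All 4 brain stem markers had a positive difference, with a median of 0.33 and a mean level of 8.46 to 8.61 in PH3 rats and 8.08 to 8.39 in Air rats, without overlap, and 1 of them had an unadjusted p under 0.05. Of 11 endothelial markers 3 had an unadjusted p under 0.05, with a median of −0.21 and a mean level of 6.72 to 6.80 in PH3 rats and 6.81 to 7.11 in Air rats. No marker of either list was called by limma, and their part in the Gpatch4 values was not tested.

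In the olfactory bulb Gpatch4 was also higher in PH3 rats at 3 h on each set, by 0.46 ± 0.152, 0.45 ± 0.165, 0.42 ± 0.163 and 0.76 ± 0.172, and none passed (adjusted p from 0.414 to 0.577). Set 4 had 5.61, 5.79, 6.11 and 6.02 in PH3 bulbs, against 5.14, 4.94, 5.43 and 4.98 in Air, with no overlap, and set 2 did not overlap either. All PH3 bulbs were above all Air bulbs on 3.24% of all probe sets. Only PH3 Rat399 and Air Rat400 gave both an olfactory bulb and a brain stem at 3 h. Without the bulb arrays that stood apart, Air Rat400 at this time among them, the differences were 0.49, 0.50, 0.41 and 0.76 (adjusted p from 0.289 to 0.530). Against the Air bulbs of the other times, 3 of the 4 sets passed, set 4 by 0.96 (adjusted p = 1.929e-04), where 3.91% of all probe sets did. At 1 h the differences in the bulb were −0.13 to −0.22.

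Blood cell markers had positive differences in the bulb at 3 h, without a call, and the PH3 bulbs spread widely. Of all 31042 probe sets in that comparison, 2351 had an unadjusted p under 0.05. All 5 neutrophil markers had a positive difference, 3 of them with an unadjusted p under 0.05, with a median of 0.765 and a mean level of 3.38 to 6.99 in PH3 bulbs and 3.64 to 4.25 in Air bulbs. All 4 red cell markers were positive, 2 of them with an unadjusted p under 0.05, with a median of 0.85 and a mean level of 4.04 to 6.56 in PH3 bulbs and 3.935 to 4.045 in Air bulbs. No marker of either list was called by limma, and their part in the Gpatch4 values was not tested.

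**Figure D5:**
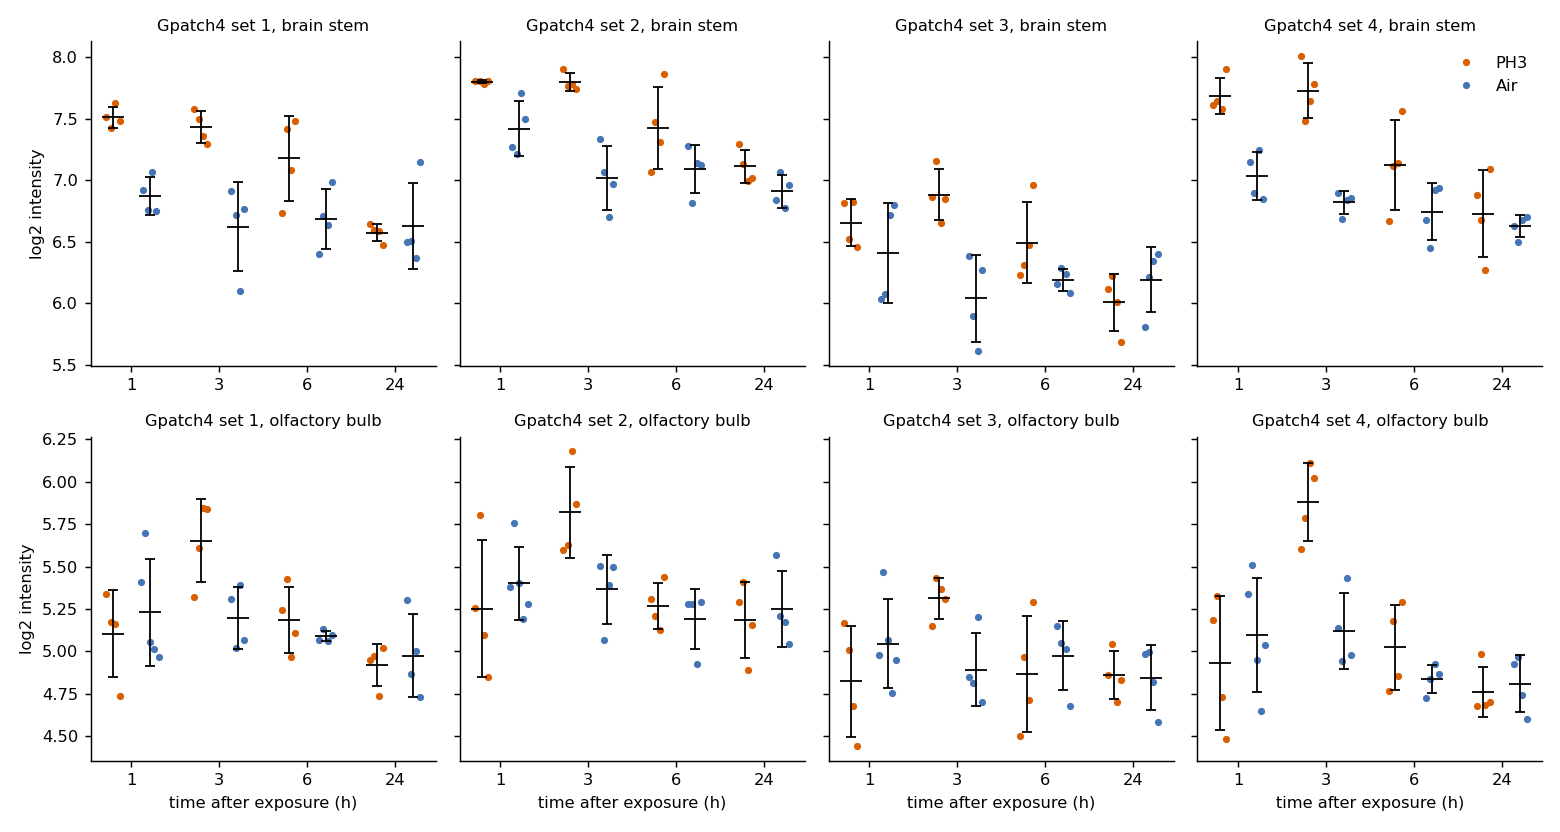
The 4 Gpatch4 probe sets in brain stem (upper row) and olfactory bulb (lower row) by time after exposure (log2 intensity), with PH3 rats left of Air rats, 1 point per array and bars for mean ± SD. At 3 h the PH3 brain stems lie above all Air brain stems on each set.

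Elsewhere Gpatch4 did not pass against Air rats of the same time. In blood at 6 h set 2 differed by 0.74 ± 0.361 (adjusted p = 0.998), and with the replicate block it passed (adjusted p = 0.0119), as did 10.7% of all probe sets. At 3 h set 1 had differences of 0.24 ± 0.131 in kidney, 0.16 ± 0.251 in heart, −0.27 ± 0.149 in lung and −0.11 ± 0.275 in blood. The test between tissues at 3 h called set 2 (adjusted p = 0.0144) and set 4 (adjusted p = 0.00998), as it did 0.303% of all probe sets, and not set 1 (adjusted p = 0.0756) or set 3 (adjusted p = 0.168). In the lung at 1 h set 1 had 5.15, 5.24, 5.15 and 5.36 with PH3, against 5.10, 4.72, 4.38 and 4.93 with Air, by 0.44 ± 0.149 (adjusted p = 0.100). In brain stem at 3 h, 0 of 4 red cell, 5 neutrophil and 11 endothelial markers were called by limma, with unadjusted p under 0.05 for 0, 2 and 2 of them.

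Ncl, the abundant nucleolar target gene, passed in none of its 24 comparisons by limma's adjusted p, and 3 of the 24 had an unadjusted p under 0.05. In the kidney it had 10.47, 10.31, 10.43 and 10.37 in PH3 rats at 1 h, against 10.23, 10.15, 10.15 and 10.36 in Air, a difference of 0.17 ± 0.0731 (adjusted p = 0.300). At 3 h PH3 kidneys had 10.63, 10.46, 10.61 and 10.41, against 10.28, 10.30, 10.28 and 10.42 in Air, a difference of 0.21 ± 0.0731 (adjusted p = 0.299). In each case 1 Air kidney lay within the PH3 range.

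In heart, lung, brain stem and olfactory bulb the Ncl differences lay between −0.08 and 0.19. In blood at 1 h PH3 rats had 9.27, 9.49, 9.52 and 8.84, against 10.06, 9.61, 9.75 and 9.95 in Air. The blood groups did not overlap, but the difference of −0.56 ± 0.270 did not pass (limma adjusted p = 0.583). With the replicate block it did (adjusted p = 4.125e-04), in a fit that called 19.4% of all probe sets in blood at 1 h. That fit uses a common spread over all tissues. With the spread of blood alone, 0% were called.

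Other genes of the network were counted from fixed lists, with 1 probe set a gene. Of 6 other genes of the MAX network measured, Mnt, a repressor that pairs with Max, rose in the kidney at 1 h. Mnt had 7.84 in PH3 and 7.34 in Air (0.50 ± 0.103, limma adjusted p = 0.00519), where 2.35% of all probe sets passed. The median of the 6 was −0.26 there, and none was called in any other comparison. Of 14 cofactor and turnover genes, 3 fell in the lung at 3 h: Trrap, a scaffold of histone acetyltransferase complexes (−0.51 ± 0.130), Huwe1, a ubiquitin ligase (−0.47 ± 0.113), and Wdr5, a chromatin protein that binds Myc (−0.24 ± 0.0718), where 9.89% of all probe sets were called. The medians of all probe sets were between −0.01 and 0.01 in the comparisons with calls among these lists.

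Of 31 genes of the nucleolus and ribosome production, few were called. In the kidney Gnl3 (nucleostemin) rose at 1 h (0.40 ± 0.0956) and Pes1, a factor of large subunit assembly, at 3 h (0.37 ± 0.0753), when 26 of the 31 had a positive difference, with a median of 0.20. Of all probe sets in kidney, 2.35% were called at 1 h and 0.303% at 3 h. In the lung at 1 h Pes1 (0.28 ± 0.0775), Rrp12 (0.46 ± 0.123) and Wdr43 (0.33 ± 0.0841) rose, and 26 of 31 were positive, with a median of 0.16. At 3 h in the lung Fbl, the methyltransferase fibrillarin (0.38 ± 0.0866), and Ebna1bp2 (0.47 ± 0.0869) rose, and Utp20 (−0.46 ± 0.150) and Bysl (−0.41 ± 0.102) fell. These 4 of 31 in the lung at 3 h stand beside 9.89% of all probe sets called there, and the 3 of 31 at 1 h beside 4.24%. In the brain stem at 3 h 0 of the 31 were called by limma (1 with an unadjusted p under 0.05), with a median of 0.04, and in the heart at 1 h 0 of 31 (3 unadjusted), with a median of 0.07.

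Of 25 growth and metabolism genes known as Myc targets, 4 rose in the lung at 1 h, where 4.24% of all probe sets were called. They were Odc1, ornithine decarboxylase of polyamine synthesis (0.66 ± 0.109), Tfrc, the transferrin receptor (0.57 ± 0.131), Hk2, a hexokinase (0.55 ± 0.148), and Slc7a5, an amino acid transporter (0.83 ± 0.184). In the kidney at 1 h Ppat, the first enzyme of purine synthesis, rose (0.47 ± 0.0767) and Ccnd2, cyclin D2, fell (−0.55 ± 0.145). Apex1, a DNA repair enzyme, rose in the lung at 3 h (0.29 ± 0.0894). Of all probe sets, 2.35% were called in the kidney at 1 h and 9.89% in the lung at 3 h. By limma the list had 0 calls in the heart at 1 h, where Mycn was called (3 with an unadjusted p under 0.05), and 0 in the brain stem at 3 h (2 unadjusted).

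Genes that Myc is known to repress were called higher at 1 h in tissues with and without a call for Myc. Of the 7 genes measured, 2 were called higher in brain stem, 1 in heart, 2 in kidney and 2 in lung, and 0 lower. Beside these, 0.306%, 0.915%, 2.35% and 4.24% of all probe sets were called. The medians of the 7 were −0.02, 0.29, 0.31 and 0.20, in that order of tissues. Cdkn1a, the cell cycle inhibitor p21, rose by 1.22 ± 0.206 in brain stem, 1.83 ± 0.318 in kidney and 1.82 ± 0.281 in lung. Gadd45g, a growth arrest gene, rose in brain stem (1.16 ± 0.214) and heart (1.67 ± 0.401), and Gadd45a in kidney (0.50 ± 0.115) and lung (0.40 ± 0.0730). At 3 h Cdkn2b, the inhibitor p15 (1.10 ± 0.358), and Ndrg1, a hypoxia-responsive gene (0.39 ± 0.0787), rose in the lung. These 2 of 7 stand beside 9.89% of all probe sets called there. Of 8 proliferation genes 0 were called in any of the 24 comparisons (limma, 19 of 192 unadjusted p-values under 0.05), with medians between −0.75 in the heart at 1 h and 0.40 in the kidney at 24 h.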

How the data were processed

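Values were log2 intensities, 1 per probe set and array, as deposited; per the submitters' processing notes, the authors used Partek and RMA, with no version named there. By its design RMA corrects background, normalises quantiles and summarises probes, which compresses differences of dim probe sets. Per the labels' protocols, the 3′ in vitro transcription kit reads the 3′ ends of transcripts. Control probe sets were left out (97 of 31139). Genes were named only from probe sets that the platform annotation gives to 1 gene; no coordinates of probe sets are given, since that annotation names no build.

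Each PH3 group was set against the Air group of its tissue and time with limma 3.58.1 (R 4.3.3), in 1 fit per tissue with 8 group coefficients shared for the spread, two-sided, adjusted by Benjamini-Hochberg over 31042 probe sets. F tests in these fits compared times, and a limma fit of all Air arrays compared tissue levels. A Welch test on the tissue effects and SEs compared tissues, taking them as independent. A gene's brightest probe set was its main one, and a list was counted with 1 probe set a gene. The named genes are all members, up to 4 called genes of a list and comparison, by smallest p, and for each member with a call the 4 genes with the highest Pearson r over its 24 effects. Tests were checked on simulated data. The members and lists were chosen with earlier results of these data known.

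Rats were the replicates, so p-values of PH3 against Air judge a difference by the spread between rats. The fit of Air levels took tissues of 1 rat as independent. With the rat as a block, 0 of its 150 pairs changed call. Rat numbers pair tissues of 1 animal, not PH3 with Air, which never share a rat. The replicate block used all tissues with the rat as a random effect (consensus correlation 0.0168, over 59 rat numbers). It was 1 fit of all arrays, so each probe set had a common spread over the 6 tissues. Its calls thus differ from those of the main fit by the spread as well as by the rat term. The highest correlation between 2 arrays was 0.99571, so no array was counted as a copy. Arrays give no counts, and their number limits the precision. Alternatives were groups of the same time alone, array medians subtracted, the brighter 50% of probe sets, an intensity trend, the 3′ index as a covariate, the replicate block, arrays that stood apart left out, Air arrays of the other times, and each array left out in turn.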

Additional observations from a re-analysis of the deposited data

Results flagged for a closer look

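Of 470 groups of 4 or 5 arrays, 21 held an array far from the others in its group by Dixon's test, where chance gives about 1 in 20. For Myc this was the PH3 heart of Rat351 at 1 h (5.92, others 7.94 to 8.35). For Mycn it was the PH3 kidney of Rat387 at 6 h (2.91) and the Air kidney of Rat355 at 3 h (4.35). For Mxd1 it was the PH3 kidney of Rat333 at 24 h (5.63) and the Air olfactory bulb of Rat400 at 3 h (5.47). For Mxd4 it was the Air heart of Rat340 at 24 h on the brighter set (7.60). On the dimmer set it was the PH3 brain stem of Rat381 at 6 h (5.62) and the PH3 olfactory bulbs of Rat482 at 1 h (6.50) and Rat517 at 3 h (6.55).

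For Gpatch4 the array was the PH3 lung of Rat391 at 6 h on set 1 (5.33), and the Air heart of Rat400 at 3 h (4.74) and Air olfactory bulb of Rat394 at 6 h (4.93) on set 2. On set 3 it was the PH3 blood of Rat343 at 1 h (6.50, others 4.87 to 5.12) and the Air heart of Rat353 at 1 h (4.90). On set 4 it was the PH3 olfactory bulb of Rat476 at 24 h (4.98) and the Air blood of Rat353 at 1 h (4.36). For Ncl the arrays were PH3 heart Rat368 at 3 h (10.46), PH3 kidney Rat375 at 6 h (10.64), Air kidney Rat490 at 3 h (10.42), Air brain stem Rat354 at 1 h (10.55) and Air brain stem Rat340 at 24 h (10.12).

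The effect of PH3 differed between groups of samples for 7 results. Between times these were Mycn in heart (limma F test, adjusted p = 0.0157) and both Mxd4 sets in lung (adjusted p = 0.0294 and 0.0310). The F test called 0.116% of all probe sets in heart and 4.82% in lung. Between tissues the results were Myc at 1 h (Welch's test, adjusted p = 7.745e-04), Mycn at 1 h (adjusted p = 8.226e-04) and Gpatch4 sets 2 and 4 at 3 h (adjusted p = 0.0144 and 0.00998). Welch's test called 3.09% of all probe sets at 1 h and 0.303% at 3 h.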

How the results depend on the processing

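The counts of members called per tissue (2 in lung, 2 in brain stem, 1 in kidney, 1 in heart, 0 in olfactory bulb and 0 in blood, by limma) are small and moved with the fit. With the groups of the same time alone they were 0 in kidney, 0 in heart, 0 in brain stem and 1 in lung. Fewer arrays estimate the spread in that setting, and the cause of the lost calls was not tested. Of all 31042 probe sets it called 121 in kidney and 9 in heart at 1 h. It called 0 in brain stem at 3 h, and 519 and 801 in lung at 1 and 3 h. Mycn in heart at 1 h then had a limma adjusted p of 0.0628 and Myc in kidney at 1 h 0.0761. With the replicate block the member counts were 2 in blood (Ncl at 1 h and Gpatch4 at 6 h), 0 in brain stem, 2 in heart and 1 in lung. That fit gave each probe set a common spread over tissues. It called 19.4% of all probe sets in blood at 1 h and 10.7% in blood at 6 h. In heart at 1 h it called 2.36%, and in lung at 3 h 1.25%. With the Air arrays of the other times they were 8 in brain stem, 2 in heart, 1 in lung and 4 in olfactory bulb, and the cause was not tested. Beside these, 0.821%, 1.09%, 0% and 6.84% of all probe sets were called in brain stem at 1, 3, 6 and 24 h, 0.338%, 3.91%, 3.68% and 0.744% in olfactory bulb, 4.62% in heart at 1 h and 10.2% in lung at 1 h. In the heart the count was 0 among the brighter 50% of probe sets, a filter that removed the Mycn set. In the lung it was 0 with the 3′ index as a covariate and 1 without the arrays that stood apart. The members whose effect differed between tissues numbered 4, and 2 with the 3′ index.

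Leaving out each array in turn gave 0 to 3 calls in brain stem, 1 to 2 in heart (2 without PH3 Rat351, Rat368 or Rat391), 1 to 4 in lung (4 without Air Rat345, 1 without Air Rat355 or PH3 Rat368) and 1 to 4 members, of 3, with an effect differing between times (1 without Rat368). In kidney the count remained 1. Calls over all 31042 probe sets moved too when an array of the comparison was left out. They ran from 85 to 766 in heart at 1 h (766 without PH3 Rat351) and from 396 to 993 in kidney at 1 h. In lung at 3 h they ran from 1356 to 3265, and in brain stem at 3 h from 0 to 5. Over 316 settings of single probe sets, 271 gave the same direction and side of the threshold, 29 lost the call, 16 gained one and 0 changed direction. These settings cover the 6 calls and also comparisons called only under an alternative, where staying uncalled counts as the same. All 29 losses fall on the 6 calls, so their share among the settings of those calls is larger than 29 of 316.

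Values low on the array, as for Mycn in kidney, brain stem and the PH3 hearts at 1 h, lie near the lower end of the scale, where differences are compressed. With 4 rats a group, differences below the intervals given were not detectable.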
